A study of Homo sapiens with 18 samples.

Results

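Notch signalling was read from 10 genes in A375 cells, an established human melanoma line: the receptors NOTCH1, NOTCH2 and NOTCH3, the ligands JAG1, JAG2, DLL1 and DLL3, and the target genes HES1, HEY1 and HEY2. They were taken by name from the 58721 genes of the count table. RNA was sequenced in 18 libraries, 3 in each of 6 groups. Guide 1 knockout cells with SOX10 overexpression and guide 1 knockout cells without it carried the first of 2 guides against TADA2B, which encodes an adaptor subunit of the SAGA histone acetyltransferase complex. Guide 2 knockout cells with SOX10 overexpression and guide 2 knockout cells without it carried the other guide. Control cells with SOX10 overexpression and control cells without it carried a guide against GFP, a sequence foreign to human cells. Per the labels, the A375 cells of all groups came from ATCC and were kept in DMEM supplemented with fetal bovine serum. It is not stated whether a group was 1 clone or a pool, or how long SOX10, a neural crest and melanocyte transcription factor, had been overexpressed. Nor is it stated whether the 3 replicates came from separate cultures, so p-values measure only the spread between these libraries, which may be technical.

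In the Notch pathway, a ligand of the Jagged (JAG) or Delta-like (DLL) family on 1 cell binds a Notch receptor on a neighbour. The receptor is then cut by ADAM10 and by gamma-secretase, and its intracellular part joins the DNA-binding protein RBPJ and a Mastermind (MAML) coactivator at target genes such as HES1, HEY1 and HEY2. These encode basic helix-loop-helix repressors. DLL3 differs from the other ligands in that it does not activate receptors on neighbouring cells. In mice, Notch signalling through Hes1 maintains melanocyte stem cells and melanoblasts.

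In TADA2B knockout cells, the 3 receptors and the targets HES1 and HEY1 fell, NOTCH1 and HES1 by more than 2-fold, while the ligand JAG1 was slightly higher. The changes seen with SOX10 overexpression differed between the 2 backgrounds. SOX10 itself rose 4.44-fold in knockout cells and 1.28-fold in control cells, and the part of this in the differences was not tested. Averaged over the 2 knockouts, SOX10 overexpression raised JAG1, HES1 and HEY2 more than 2-fold, with JAG1 at 1.95-fold for guide 1 alone. In control cells it raised HEY1 and HEY2 more than 2-fold and HES1 by less, and JAG1 did not pass the test. HEY1, which was 2.21-fold higher with SOX10 in control cells, did not pass the test for SOX10 when the 2 knockouts were averaged.

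Each library held between 58573910 and 79874237 counts. TADA2B itself averaged 25.3, 26.0, 26.9 and 28.8 CPM (counts per 1000000 counts of the scaled library) in the 4 knockout groups (guide 1 with SOX10, guide 1, guide 2 with SOX10, guide 2), 31.0 CPM in control cells with SOX10 and 32.5 CPM in control cells. All 12 knockout libraries were below all 6 control libraries, by little (log2 change without SOX10 overexpression -0.25, adjusted p = 1.16e-06 by edgeR), and counts over the whole gene do not report the edit itself. SOX10 averaged 291, 83.6, 246 and 43.4 CPM in the same 4 knockout groups, against 452 CPM with SOX10 overexpression and 354 CPM without it in the control background, so SOX10 itself was lower in knockout cells (log2 change without overexpression -2.55, adjusted p = 1.23e-34 by edgeR). Introduced and endogenous SOX10 reads were not told apart. On principal component 4 of the log CPM values, replicate 2 of guide 2 knockout cells lay apart from its group, at -26.4 against -4.28 and -8.17. The libraries of guide 2 knockout cells with SOX10 were spread out, at -0.175, -13.3 and -24.3 for replicates 1, 2 and 3. Results that change without replicate 2 of the former group or replicate 3 of the latter are marked where they occur. Of 9 markers of the melanocyte lineage, 3 to 6 reached a group mean of 1 CPM, and TYR, which encodes the pigment enzyme tyrosinase, had 16 counts in all libraries together. In these bulk libraries, fewer cells of a type and less RNA per cell cannot be told apart.

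Of the 10 genes, 9 passed the filter on low counts and were tested. DLL1, the tenth, had 65 counts over all 18 libraries and was not tested. Its counts were 5, 3 and 4 in guide 1 knockout cells with SOX10, 4, 1 and 4 in guide 1 knockout cells, 7, 11 and 4 in guide 2 knockout cells with SOX10, and 5, 1 and 4 in guide 2 knockout cells. Control cells had 1, 3 and 2 counts with SOX10 and 2, 4 and 0 without it. A library with 0 counts allows up to 3 counts, which was between 0.0359 and 0.0493 CPM in these libraries and covers counting error only. DLL1 was therefore at or near the detection limit throughout, and its differences between groups were not tested.

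The genes lie on hg38 as annotated by GENCODE release 29. NOTCH1 (ENSG00000148400) spans 136494433 to 136545786 of chromosome 9, NOTCH2 (ENSG00000134250) 119911553 to 120069626 of chromosome 1, and NOTCH3 (ENSG00000074181) 15159038 to 15200981 of chromosome 19. JAG1 (ENSG00000101384) spans 10637684 to 10673999 of chromosome 20, JAG2 (ENSG00000184916) 105140981 to 105168824 of chromosome 14, DLL1 (ENSG00000198719) 170282206 to 170306565 of chromosome 6, and DLL3 (ENSG00000090932) 39498895 to 39508481 of chromosome 19. HES1 (ENSG00000114315) spans 194136145 to 194138732 of chromosome 3, HEY1 (ENSG00000164683) 79764010 to 79767863 of chromosome 8, and HEY2 (ENSG00000135547) 125747664 to 125761269 of chromosome 6. HES1, HEY2 and DLL3 are transcribed from the forward strand and the other genes from the reverse strand. JAG1 shares 79 exonic bases with the antisense gene AL050403.2, which had 0 to 4 counts per library. JAG2 shares 469 exonic bases with AL512356.1, which had 0 counts in every library. NOTCH2 has near-identical relatives, among them NOTCH2NLA with 189 to 316 counts per library, so its assignment of reads carries some uncertainty.

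On the RPKM scale, CPM divided by exonic length in kilobases, the receptor NOTCH2 was the most abundant of the 10 in every group. Its level averaged 22.6 ± 0.692 RPKM in control cells (SD, n = 3, as for all errors on levels here). HES1 at 11.5 ± 0.415 RPKM, NOTCH1 at 5.88 ± 0.244 RPKM and JAG1 at 4.34 ± 0.134 RPKM followed. HEY1 at 1.68 ± 0.135 RPKM, DLL3 at 0.956 ± 0.0669 RPKM, NOTCH3 at 0.773 ± 0.0364 RPKM and HEY2 at 0.258 ± 0.0268 RPKM were lower. Neighbours in this order stood apart by more than their SDs, except DLL1 and JAG2 at the bottom, which did not. The order changed with the genotype. In guide 1 and guide 2 knockout cells JAG1, at 5.83 ± 0.214 and 4.69 ± 0.224 RPKM, stood above HES1, at 5.14 ± 0.139 and 3.69 ± 0.174 RPKM. Among guide 1 knockout cells with SOX10, JAG1 at 11.4 ± 0.256 RPKM and HES1 at 11.2 ± 0.458 RPKM did not differ beyond their spread. Control cells with SOX10 had HES1 at 16.0 ± 1.36 RPKM, close below NOTCH2 at 18.8 ± 0.325 RPKM, and there JAG1 at 4.53 ± 0.279 RPKM and NOTCH1 at 4.38 ± 0.154 RPKM did not differ beyond their spread. On the log2 scale, HEY2 had the widest range of group means, 2.36, followed by HES1 at 2.11 and HEY1 at 1.86, whereas DLL3 ranged over 0.30.

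**Figure D1:**
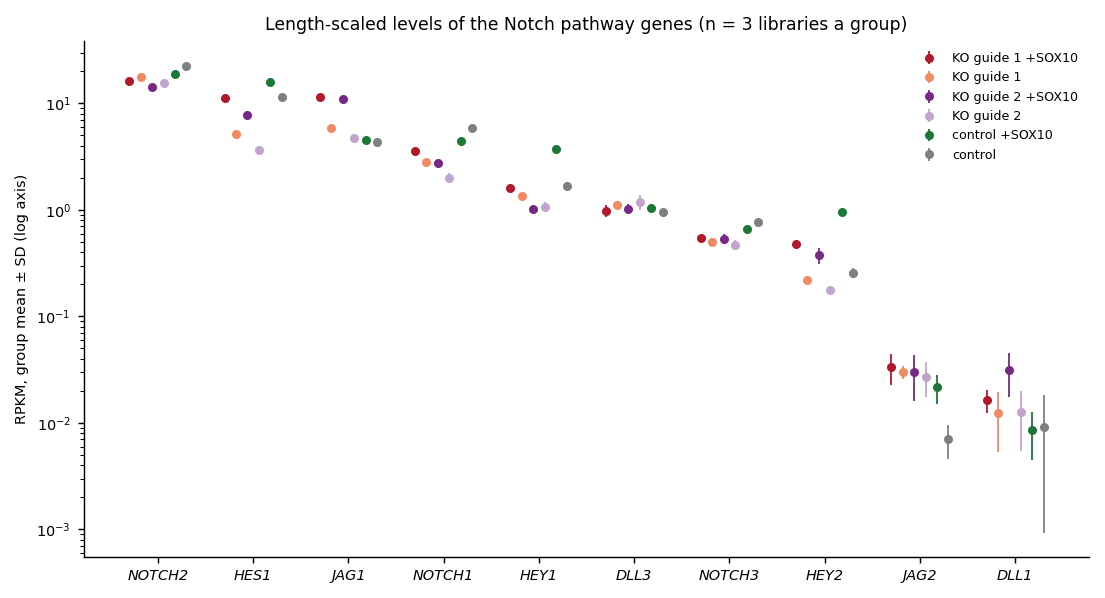
Mean level of each gene in RPKM (log axis) with its SD in each of the 6 groups, 3 libraries a group, genes ordered from high to low over all groups. NOTCH2, HES1 and JAG1 lead, and JAG2 and DLL1 lie far below the rest; the lower bar of DLL1 in control cells is shortened because a log axis cannot reach 0.

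Tests used edgeR's quasi-likelihood test on all 18 libraries, with p-values adjusted by Benjamini-Hochberg over the 21060 genes tested; a gene is called changed at an adjusted p under 0.05, and folds are given on the log2 scale with their standard errors. Comparisons with the knockouts averaged give each guide the same weight. Averaged over guides, knockout cells differed from control cells in 58.1% of all genes tested, in either direction. Against that share, 8 of the 9 Notch genes were called, 3 higher (28.6% of all genes) and 5 lower (29.5%), and their median log2 change was -0.44, beside -0.01 for all genes tested. Knockout changes are relative to the scaling used. With plain library-size scaling the median of all genes moved to 0.15, and 9112 of 12657 called genes were higher in knockout cells, against 6025 of 12230 with the scaling used here. The 9 Notch genes kept the direction of their knockout change under both.

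Markers of other cell types also moved with the knockout, and their part in the Notch changes was not tested. The sum of 7 fibroblast or mural markers was 43.2 to 47.8 and 46.9 to 49.7 CPM in guide 1 and guide 2 knockout cells, against 11.2 to 13.4 CPM in control cells. LUM made up much of it, and 5 of the 7 in knockout cells and 4 of the 7 in control cells reached 1 CPM. The collagen gene COL1A1 was also higher, at 8.13 and 9.10 CPM in guide 1 and guide 2 knockout cells against 0.984 CPM in control cells. PDGFRB had 7.20 and 7.44 CPM in the same knockout groups against 3.62 CPM in control cells. COL1A2, a defining collagen gene, was lower in knockout cells and had 62 counts in all libraries together. The sum of 6 keratinocyte or epithelial markers was 296 to 311 and 311 to 338 CPM in guide 1 and guide 2 knockout cells, against 176 to 177 CPM in control cells. It consisted almost wholly of KRT8 and KRT18, with 2 or 3 of the 6 at 1 CPM or more, and CDH1, the epithelial cadherin gene, had 25 counts in all. KRT14 went the other way, at 1.18 and 0.368 CPM in guide 1 and guide 2 knockout cells against 5.41 CPM in control cells.

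NOTCH1, a receptor, was lower in every knockout library. It was measured at 29.1, 29.5 and 29.4 CPM in guide 1 knockout cells, 23.3, 19.5 and 19.4 CPM in guide 2 knockout cells, and 63.8, 60.5 and 58.8 CPM in control cells. The 6 knockout libraries lay far below the 3 control libraries with no overlap. Its log2 change was -1.31 ± 0.04, a 2.47-fold lower level (adjusted p = 7.12e-26), and it fell with guide 1 (-1.06) and with guide 2 (-1.56).

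With SOX10, NOTCH1 moved in opposite directions in the 2 backgrounds. Guide 1 knockout cells with SOX10 had 35.4, 37.2 and 37.8 CPM, guide 2 knockout cells with SOX10 had 29.1, 30.1 and 27.0 CPM, and control cells with SOX10 had 47.0, 45.7 and 43.8 CPM. Within each knockout line the SOX10 libraries lay above those without SOX10, while in control cells they lay below. The log2 change with SOX10 was 0.40 ± 0.04 in knockout cells (adjusted p = 7.51e-12) and -0.42 ± 0.05 in control cells (adjusted p = 4.80e-09). The difference of these effects was 0.82 ± 0.06 (adjusted p = 9.36e-14). Knockout cells with SOX10 had less NOTCH1 than control cells with SOX10, at -0.48 ± 0.04 (adjusted p = 2.52e-12).

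NOTCH2, the receptor with the highest level, fell less. It had 301, 294 and 294 CPM in guide 1 knockout cells, 265, 259 and 266 CPM in guide 2 knockout cells, and 385, 389 and 367 CPM in control cells. No knockout library reached the control range. The log2 change in knockout cells was -0.44 ± 0.02, 1.36-fold lower (adjusted p = 1.10e-19). SOX10 lowered it further in each background. Guide 1 knockout cells with SOX10 had 271, 282 and 272 CPM, guide 2 knockout cells with SOX10 had 241, 229 and 245 CPM, and control cells with SOX10 had 319, 319 and 310 CPM. All SOX10 libraries were below their counterparts without SOX10. The log2 change with SOX10 was -0.13 ± 0.02 in knockout cells (adjusted p = 7.23e-07) and -0.27 ± 0.03 in control cells (adjusted p = 1.88e-10).

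NOTCH3, a receptor best known from vascular smooth muscle, was the least abundant of the 3 receptors. It had 4.22, 5.03 and 4.82 CPM in guide 1 knockout cells, 4.97, 4.00 and 4.28 CPM in guide 2 knockout cells, and 6.98, 7.16 and 7.64 CPM in control cells. Knockout and control libraries did not overlap, and the log2 change was -0.67 ± 0.08 (adjusted p = 2.71e-09). The effect of SOX10 passed the test in neither background: it was 0.16 ± 0.07 in knockout cells (adjusted p = 0.0544) and -0.23 ± 0.09 in control cells (adjusted p = 0.0607), and both values crossed the threshold when single libraries were left out. The value in control cells passed without replicate 2 of control cells with SOX10 (adjusted p = 0.0392), without replicate 2 of guide 2 knockout cells (0.0483) or when the other groups were left out of the fit (0.0396). The value in knockout cells passed without replicate 1 or 2 of control cells with SOX10 (0.0462 and 0.0475), replicate 2 of guide 1 knockout cells (0.0376), replicate 1 of guide 2 knockout cells (0.0134) or replicate 1 of guide 2 knockout cells with SOX10 (0.0143), and with a filter at a mean of 1 CPM (0.0406). The difference between these effects was called, at 0.38 ± 0.12 (adjusted p = 0.00978).

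**Figure D2:**
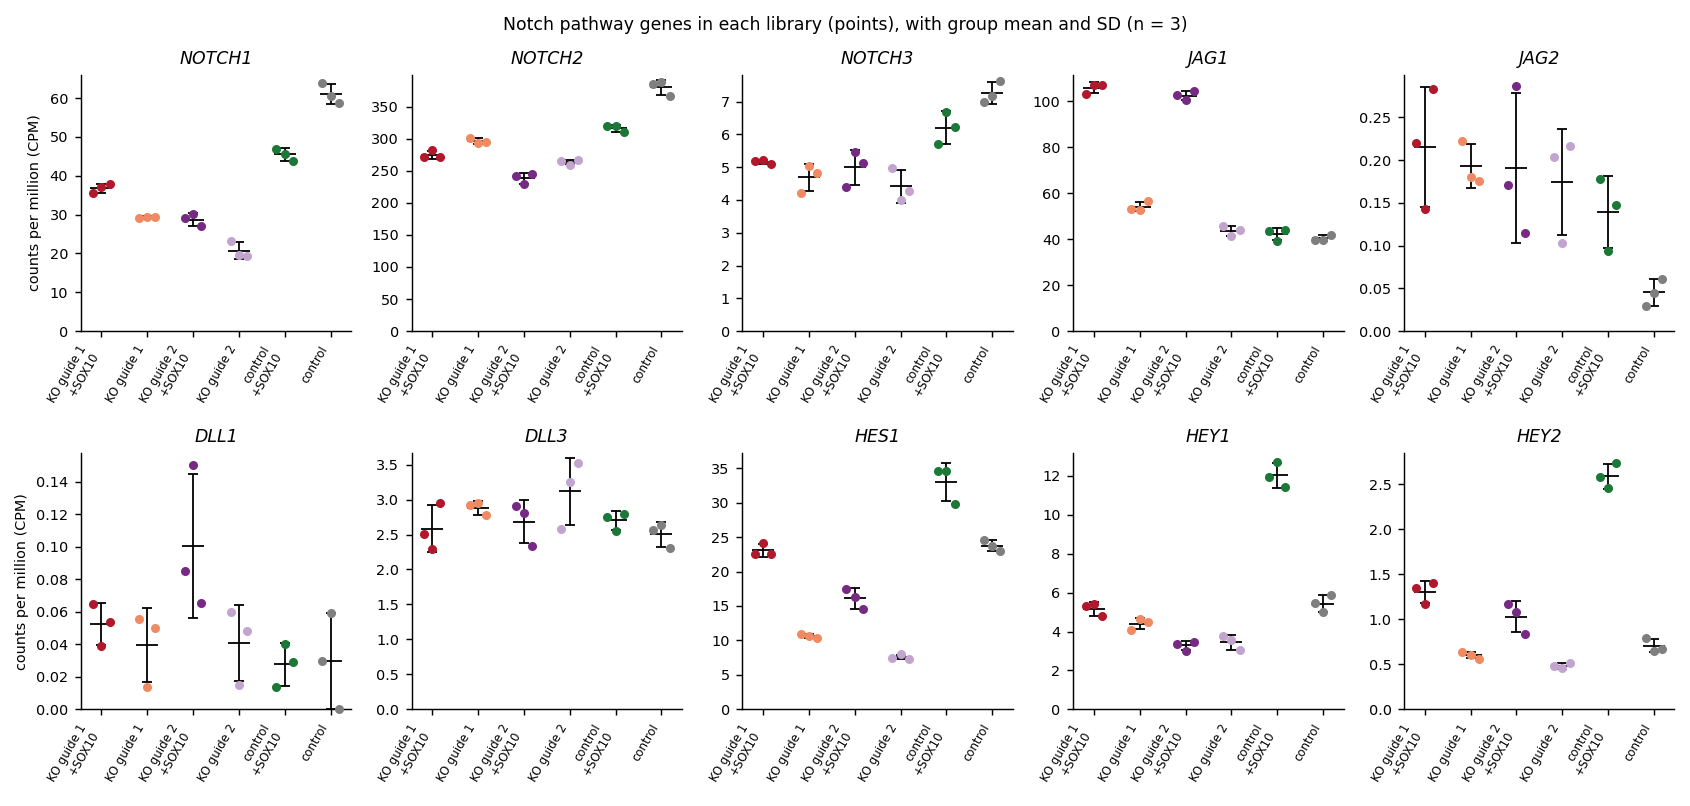
Level of each of the 10 genes in CPM (linear axes from 0) in every library (points), with the group mean and SD (n = 3). NOTCH1, NOTCH2 and NOTCH3 are lower in every knockout group than in control cells, JAG1 is near 100 CPM only in the knockout groups with SOX10, and HEY1 and HEY2 are highest in control cells with SOX10.

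JAG1, the most abundant ligand, was highest where knockout and SOX10 overexpression were combined. Guide 1 knockout cells with SOX10 had 103, 107 and 107 CPM and guide 2 knockout cells with SOX10 had 103, 100.4 and 104 CPM. Without SOX10, guide 1 knockout cells had 53.2, 52.9 and 56.5 CPM and guide 2 knockout cells had 45.5, 41.4 and 43.9 CPM. Control cells with SOX10 had 43.5, 39.2 and 43.8 CPM, and control cells had 39.9, 39.5 and 41.8 CPM. The 6 libraries that combined knockout and SOX10 lay apart from the other 12, and the control groups overlapped each other.

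The knockout alone raised JAG1 by 0.27 ± 0.04 on the log2 scale (adjusted p = 2.42e-08), by 0.42 with guide 1 and 0.11 with guide 2. The guide 2 libraries overlapped the control libraries, and the guide 2 call (adjusted p = 0.0194) was lost without replicate 1 or 3 of guide 2 knockout cells (adjusted p = 0.136 and 0.0532) and without replicate 1 or 2 of control cells (0.0668 and 0.0912). SOX10 raised JAG1 2.14-fold in knockout cells, at 1.10 ± 0.03 (adjusted p = 4.28e-31), against 0.06 ± 0.04 in control cells, which did not pass (adjusted p = 0.282; 0.0476 without replicate 2 of control cells with SOX10). The difference of 1.04 ± 0.05 between these effects was called (adjusted p = 2.22e-20). Relative to control cells, the combination gave a 2.58-fold higher level, 1.37 ± 0.04 (adjusted p = 4.52e-30). Relative to control cells with SOX10 the value was 1.30 ± 0.04 (adjusted p = 1.52e-29).

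JAG1 is also an endothelial gene, and the summed level of 7 endothelial markers was highest in the knockout groups with SOX10. The sum lay between 30.9 and 33.2 CPM in guide 1 knockout cells with SOX10 and between 37.7 and 38.1 CPM in guide 2 knockout cells with SOX10. It was 5.24 to 6.30 CPM in guide 1 knockout cells, 5.93 to 6.12 CPM in guide 2 knockout cells, 11.4 to 12.0 CPM in control cells with SOX10 and 4.83 to 6.24 CPM in control cells. KDR, a VEGF receptor gene, made up most of the sum in the groups with SOX10. With SOX10 it had 27.7 and 33.1 CPM in guide 1 and guide 2 knockout cells and 10.5 CPM in control cells. Without SOX10 it had 0.395 and 0.254 CPM in guide 1 and guide 2 knockout cells and 3.26 CPM in control cells. VWF and TEK were also higher with SOX10 in both knockout lines, whereas 3 markers were lower: TIE1 had 1.36 and 1.63 CPM in guide 1 and guide 2 knockout cells with SOX10 against 3.40 and 3.57 CPM without it, and CDH5 and PECAM1 moved the same way. ERG, a defining endothelial transcription factor gene, had 4 counts in all libraries together. Between 1 and 4 of the 7 markers reached a group mean of 1 CPM, and their part in the JAG1 result was not tested. In knockout cells the sum of 6 leukocyte markers was also higher with SOX10, and the sums were 18.3 to 19.4 and 19.96 to 21.7 CPM in guide 1 and guide 2 knockout cells with SOX10, 8.497 to 9.08 and 5.34 to 6.40 CPM without it, 5.29 to 6.14 CPM in control cells with SOX10 and 8.35 to 9.22 CPM in control cells. Among the 6, LYZ alone reached a group mean of 1 CPM, and the part of this list was not tested.

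JAG2, the other Jagged ligand, was barely present, so its counts are given. Guide 1 knockout cells with SOX10 had 17, 11 and 21 counts, guide 1 knockout cells 16, 13 and 14, guide 2 knockout cells with SOX10 14, 21 and 7, and guide 2 knockout cells 17, 7 and 18. Control cells with SOX10 had 13, 7 and 10 counts, and control cells 2, 3 and 4. Control cells were the lowest group and no library of another group overlapped them. JAG2 was higher in knockout cells (log2 change 1.99 ± 0.52, adjusted p = 0.00108), and higher with SOX10 in control cells, at 1.59 ± 0.60 (adjusted p = 0.0353). The SOX10 call rested on few counts: it was lost with DESeq2 (adjusted p = 0.0557), without the filter on low counts (0.0666), without replicate 1 or 2 of control cells (0.129 and 0.0871), and without replicate 1 or 3 of control cells with SOX10 (0.130 and 0.0749). In knockout cells the SOX10 effect on JAG2 was 0.14 ± 0.31 (adjusted p = 0.730), and the difference between backgrounds was not called (adjusted p = 0.0996).

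DLL3 hardly varied. It had 2.92, 2.95 and 2.77 CPM in guide 1 knockout cells, 2.59, 3.24 and 3.52 CPM in guide 2 knockout cells, and 2.56, 2.64 and 2.31 CPM in control cells, with 1 guide 2 library inside the control range. The knockout change of 0.26 ± 0.11 was just past the threshold (adjusted p = 0.0461), and 15 of 25 alternative settings lost it. Leaving out any of 12 libraries in turn did so, among them replicate 3 of control cells (adjusted p = 0.193), replicate 3 of guide 2 knockout cells (0.126) and replicate 2 of guide 2 knockout cells (0.0725). With SOX10, DLL3 had 2.51, 2.29 and 2.95 CPM in guide 1 knockout cells, 2.91, 2.80 and 2.33 CPM in guide 2 knockout cells, and 2.76, 2.55 and 2.79 CPM in control cells. The SOX10 groups overlapped their counterparts in every background. No SOX10 effect was called, at -0.18 ± 0.09 in knockout cells (adjusted p = 0.0777; 0.0336 without replicate 3 of guide 1 knockout cells with SOX10 and 0.0219 without replicate 1 of guide 2 knockout cells) and 0.11 ± 0.13 in control cells (adjusted p = 0.579).

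The bases upstream of 3 genes are shown because these genes carry the main contrasts: JAG1, which was high where knockout and SOX10 met, HES1, which fell in the knockout, and HEY2, which rose with SOX10. RefSeq's promoter table for GRCh38.p14 had an entry for 7 of the 10 genes. Printed are up to 250 bases before the RefSeq start on the transcribed strand, 5′ to 3′, ended before any exon annotated by GENCODE. Capitals mark TGGGAA, the core of the RBPJ site, or its complement TTCCCA.
JAG1 (chr20:10674000-10674249, reverse strand): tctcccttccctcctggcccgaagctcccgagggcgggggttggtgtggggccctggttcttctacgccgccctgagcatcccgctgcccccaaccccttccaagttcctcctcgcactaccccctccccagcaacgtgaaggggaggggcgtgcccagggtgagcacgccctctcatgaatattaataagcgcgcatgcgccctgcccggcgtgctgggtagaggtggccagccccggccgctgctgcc
HES1 (chr3:194135898-194136144, forward strand): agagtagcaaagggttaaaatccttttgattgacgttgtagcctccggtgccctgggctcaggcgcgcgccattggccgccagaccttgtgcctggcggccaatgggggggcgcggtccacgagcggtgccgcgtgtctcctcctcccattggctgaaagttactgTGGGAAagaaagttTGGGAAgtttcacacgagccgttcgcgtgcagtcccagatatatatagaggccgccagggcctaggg
HEY2 (chr6:125749382-125749579, forward strand): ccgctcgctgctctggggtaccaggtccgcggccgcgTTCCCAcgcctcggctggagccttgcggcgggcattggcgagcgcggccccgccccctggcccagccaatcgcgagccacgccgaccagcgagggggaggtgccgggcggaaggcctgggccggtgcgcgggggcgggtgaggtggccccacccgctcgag
HES1 holds 2 copies of TGGGAA on the transcribed strand, whose first bases lie at -84 and -70 from the start. HEY2 holds 1 copy on the opposite strand at -213; its RefSeq start lies within the gene as GENCODE annotates it. JAG1 has none, nor do NOTCH1, NOTCH2, NOTCH3 and JAG2. Searched on either strand, TGGGAA occurs in the 250 bases before 20.8% of 35116 RefSeq starts, and 1.7% hold at least 2 copies on a single strand. CACNAG, the N-box that HES proteins bind, had 3 matches in HES1 and 1 in NOTCH3, and occurs in 32.0% of all starts. The SOX cores ACAAAG and ACAAT, found in 13.7% and 24.6% of all starts, had no match in any of the 7 windows. The motifs do not overlap each other in these matches, and a match is a description, not a binding site.

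HES1, the target with the highest level, fell in the knockout about as much as NOTCH1. It had 10.9, 10.7 and 10.3 CPM in guide 1 knockout cells, 7.46, 8.01 and 7.34 CPM in guide 2 knockout cells, and 24.6, 23.7 and 22.9 CPM in control cells. Every knockout library lay well below the lowest control library. The log2 change was -1.41 ± 0.05, 2.65-fold lower (adjusted p = 1.29e-24), made up of -1.16 with guide 1 and -1.65 with guide 2.

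SOX10 raised HES1 in every background. It had 22.5, 24.1 and 22.6 CPM in guide 1 knockout cells with SOX10, 17.5, 16.3 and 14.5 CPM in guide 2 knockout cells with SOX10, and 34.6, 34.5 and 29.7 CPM in control cells with SOX10. No SOX10 library overlapped its counterpart without SOX10, and guide 1 knockout cells with SOX10 reached the range of control cells. The change was 1.10 ± 0.05 in knockout cells, 2.15-fold (adjusted p = 2.72e-23), and 0.47 ± 0.06 in control cells, 1.39-fold (adjusted p = 1.50e-08). The difference of 0.63 ± 0.08 was called (adjusted p = 6.80e-09). The sum of 5 neural progenitor markers was also higher with SOX10 in every background, at 311 to 329, 136 to 147, 282 to 298 and 128 to 142 CPM in guide 1 knockout cells with SOX10 and without it and guide 2 knockout cells with SOX10 and without it, 449 to 503 CPM in control cells with SOX10, and 369 to 374.6 CPM in control cells. NES made up most of it, 2 of the 5 reached 1 CPM, and PAX6 had 22 counts in all. SOX2, the other marker over 1 CPM, did not rise in the knockout lines. It had 5.68 and 4.04 CPM in guide 1 and guide 2 knockout cells with SOX10 against 7.55 and 5.42 CPM without it. Control cells had 14.7 CPM of SOX2 with SOX10 and 14.6 CPM without it. The sum of the 9 melanocyte markers, SOX10 among them, was 403 to 420, 171 to 179, 328 to 338 and 136 to 145 CPM in the same 4 knockout groups, 736 to 740 CPM in control cells with SOX10 and 401 to 425 CPM in control cells. SOX10, the overexpressed gene, made up most of it in control cells and in all groups with SOX10. Like the sum, DCT, S100B and S100A1 were higher with SOX10 in every background and lower in knockout than in control cells without SOX10. Unlike the sum, DCT and S100B in both knockout lines with SOX10 exceeded control cells without it. DCT had 22.8 and 6.59 CPM there against 1.01 CPM, and S100B 24.8 and 17.8 CPM against 14.2 CPM. MITF did not follow the sum, at 64.2, 84.3, 56.3 and 92.1 CPM in the same 4 knockout groups. It had 85.4 and 39.7 CPM in control cells with and without SOX10. At low levels, PMEL and TYRP1 were also higher in knockout than in control cells. Without SOX10, PMEL had 0.869 and 0.795 CPM in guide 1 and guide 2 knockout cells against 0.412 CPM in control cells. TYRP1 had 0.619 and 0.879 CPM against 0.0955 CPM. MLANA was lower, at 0.791 and 0.907 CPM against 1.16 CPM. The part of either list in the HES1 result was not tested. Averaged over guides, knockout cells with SOX10 stayed 0.30 ± 0.05 below control cells on the log2 scale (log2 change -0.30, adjusted p = 4.60e-06).

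HEY1, a target repressor also known from blood vessel and heart development, fell less in the knockout. It had 4.07, 4.63 and 4.49 CPM in guide 1 knockout cells, 3.76, 3.54 and 3.03 CPM in guide 2 knockout cells, and 5.46, 4.98 and 5.86 CPM in control cells, with no overlap. The log2 change was -0.48 ± 0.08 (adjusted p = 3.36e-06), -0.30 with guide 1 and -0.66 with guide 2. The guide 1 call (adjusted p = 0.00684) was lost with library-size scaling (0.175) and without replicate 3 of control cells (0.0513).

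The SOX10 response of HEY1 was large in control cells and was not seen in the averaged knockout. Guide 1 knockout cells with SOX10 had 5.32, 5.40 and 4.77 CPM, guide 2 knockout cells with SOX10 had 3.36, 3.02 and 3.47 CPM, and control cells with SOX10 had 11.9, 12.7 and 11.4 CPM. Control cells with SOX10 lay above every other library, while the guide 2 groups overlapped. The effect was 0.08 ± 0.07 in knockout cells (adjusted p = 0.337; 95% interval -0.06 to 0.22) and 1.15 ± 0.09 in control cells (adjusted p = 5.06e-14). Their difference of -1.06 ± 0.11 was called (adjusted p = 4.19e-10). Guide 1 alone gave 0.23 (adjusted p = 0.0453), which 9 of 25 alternative settings lost, and guide 2 gave -0.07 (adjusted p = 0.619). The guide 1 call was lost without replicate 1 or 3 of guide 1 knockout cells (0.172 and 0.0620), replicate 1 or 2 of guide 1 knockout cells with SOX10 (0.114 and 0.149), or replicate 3 of control cells with SOX10 (0.0504). Between SOX10 groups, knockout cells had 2.92-fold less HEY1 than control cells, at -1.54 ± 0.08 (adjusted p = 5.43e-21).

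HEY2, a close relative of HEY1, had the largest SOX10 response of the 9 tested genes in control cells. It had 1.35, 1.17 and 1.40 CPM in guide 1 knockout cells with SOX10, 1.17, 1.08 and 0.838 CPM in guide 2 knockout cells with SOX10, and 2.58, 2.46 and 2.74 CPM in control cells with SOX10. Without SOX10 it had 0.639, 0.610 and 0.565 CPM in guide 1 knockout cells, 0.479, 0.457 and 0.517 CPM in guide 2 knockout cells, and 0.790, 0.652 and 0.676 CPM in control cells. SOX10 libraries were higher in every background, highest in control cells.

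The log2 change of HEY2 with SOX10 was 1.10 ± 0.13 in knockout cells (adjusted p = 2.89e-09) and 1.87 ± 0.18, 3.66-fold, in control cells (adjusted p = 8.16e-12). Unlike HEY1, it kept a 2.15-fold response in knockout cells; the difference between backgrounds was -0.77 ± 0.22 (adjusted p = 0.00620). The knockout alone did not pass the test for HEY2, at -0.38 ± 0.18 (adjusted p = 0.0614), although its libraries did not overlap those of control cells. Guide 2 by itself was called (-0.54, adjusted p = 0.0252), a call that 7 of 25 alternative settings lost, among them those without replicate 1 or 2 of guide 2 knockout cells (0.0589 and 0.0687) and without replicate 1 of control cells (0.104).

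**Figure D3:**
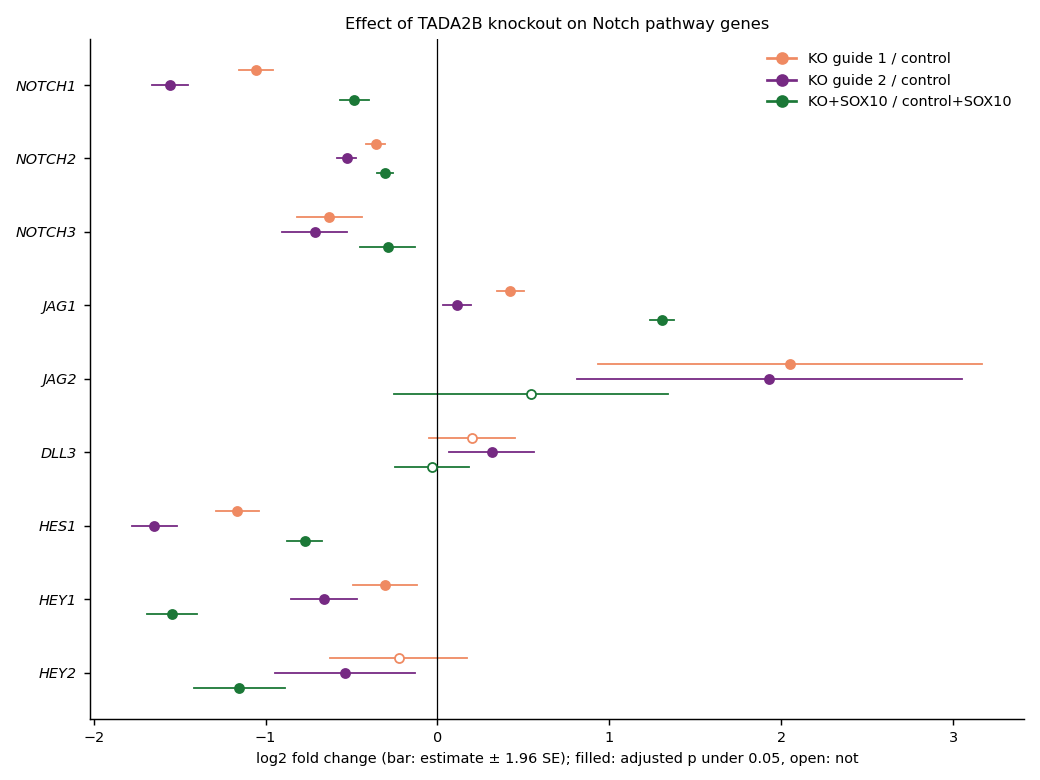
Log2 fold change with its 95% interval for guide 1 and guide 2 knockout cells over control cells and for knockout over control cells within the SOX10 groups, for the 9 tested genes; filled points passed an adjusted p under 0.05. Receptors and HES1 lie left of 0 in all 3 comparisons, JAG1 lies right of 0, and the values of HEY1 and HEY2 within the SOX10 groups are the lowest of their 3.

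Over the 9 genes, the SOX10 effect was called for 5 in knockout cells, where 56.2% of all genes were called: NOTCH1, JAG1, HES1 and HEY2 were higher (28.1% of all genes) and NOTCH2 was lower (28.1%). In control cells it was called for 6, where 34.4% of all genes were called: JAG2, HES1, HEY1 and HEY2 were higher (17.3% of all genes), and NOTCH1 and NOTCH2 were lower (17.2%). The median log2 change of the 9 was 0.16 in knockout cells, beside 0.00 for all genes tested, and 0.11 in control cells, beside -0.01 for all genes. HES1 and HEY2 were higher and NOTCH2 lower with SOX10 in both backgrounds, and NOTCH1 changed sign. The difference between the 2 SOX10 effects was called for 7 of the 9, against 33.3% of all genes. It was positive for NOTCH1, NOTCH2, NOTCH3, JAG1 and HES1 (18.1% of all genes), negative for HEY1 and HEY2 (15.1%), and not called for JAG2 and DLL3. SOX10 itself rose by 2.15 in knockout cells and 0.35 in control cells on the log2 scale, and its part was not tested.

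**Figure D4:**
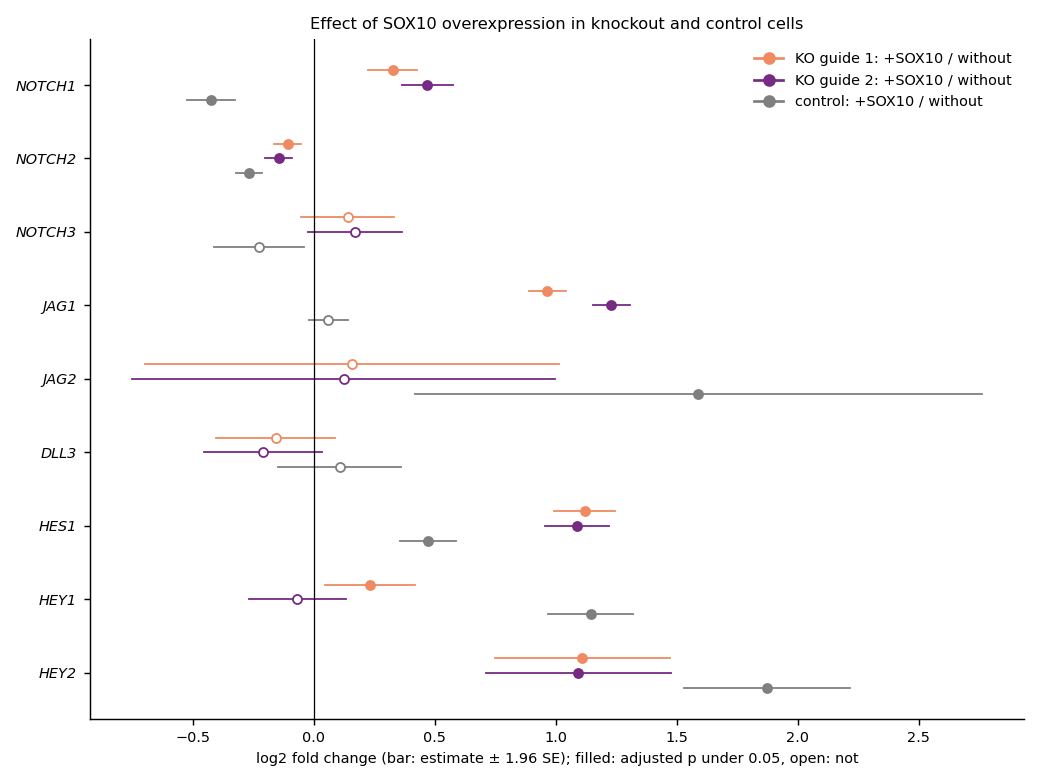
Log2 fold change with SOX10 over without SOX10, with its 95% interval, in guide 1 knockout, guide 2 knockout and control cells for the 9 tested genes; filled points passed an adjusted p under 0.05. NOTCH1 lies on opposite sides of 0 in knockout and control cells, JAG1 responds in the knockout lines, and HEY1 and HEY2 respond most in control cells.

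Set against control cells, knockout cells with SOX10 differed in 57.9% of all genes tested and in 8 of the 9 Notch genes. The 3 higher genes (30.0% of all genes) were JAG1, JAG2 and HEY2, with log2 changes of 1.37, 2.13 and 0.72. The 5 lower genes (27.9% of all genes) follow. NOTCH1 at -0.91, NOTCH2 at -0.57, NOTCH3 at -0.52, HES1 at -0.30 and HEY1 at -0.40 were lower, and DLL3 at 0.08 was not called (adjusted p = 0.595). Both this comparison and the knockout comparison use the same 3 control libraries. Within the SOX10 groups, knockout cells differed from control cells in 55.0% of all genes and in 7 of the 9 Notch genes, of which JAG1 was higher (28.2% of all genes) and 6 were lower (26.7%). HES1 was lower there by 1.71-fold, at -0.77 ± 0.05 (adjusted p = 8.06e-17), and HEY2 by 2.22-fold, at -1.15 ± 0.14 (adjusted p = 1.24e-09). NOTCH3, at -0.29 ± 0.08 (adjusted p = 0.00273), was no longer called with library-size scaling (0.127).

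For the 9 tested genes, the knockout effects of the 2 guides against control cells differed in size rather than in sign. Against control cells, guide 1 called 7 of the 9 genes (52.6% of all genes) and guide 2 all 9 (55.9% of all genes). Of the guide 2 calls, DLL3 (0.31, adjusted p = 0.0329) was lost without replicate 1 or 3 of control cells (0.0535 and 0.129) or replicate 2 or 3 of guide 2 knockout cells (0.0855 and 0.213). Guide 2 knockout cells were lower than guide 1 knockout cells in 5 of the 9, where 8.74% of all genes were called and 6.09% were lower. The log2 differences were -0.50 ± 0.05 for NOTCH1 (adjusted p = 4.37e-09), -0.17 ± 0.03 for NOTCH2 (adjusted p = 2.14e-05), -0.31 ± 0.04 for JAG1 (adjusted p = 1.58e-07) and -0.48 ± 0.07 for HES1 (adjusted p = 1.78e-06). HEY1 differed by -0.35 ± 0.10 (adjusted p = 0.0150), which was lost without replicate 2 or 3 of guide 1 knockout cells (0.0853 and 0.0593) or replicate 3 of guide 2 knockout cells (0.152). SOX10 was also lower in guide 2 than in guide 1 knockout cells, at 43.4 against 83.6 CPM, and its part in these differences was not tested. Each guide was 1 line in these data, so guide and line cannot be told apart. The SOX10 effect was called for 6 of the 9 genes with guide 1 (43.7% of all genes) and 5 with guide 2 (48.6%). It differed between guides for JAG1 alone among the 9, where 2.51% of all genes were called. The JAG1 change was 1.23 with guide 2 and 0.96 with guide 1, a difference of 0.27 ± 0.06 (adjusted p = 0.00262). SOX10 itself rose by 2.50 with guide 2 and 1.80 with guide 1 on the log2 scale, and its part was not tested.

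Further genes of the pathway were read from 8 lists with 71 genes, of which 67 were tested; DLK1, HES5, HEYL and NRARP were too low. In knockout cells 18 were higher, 32 lower and 17 not called, with a median log2 change of -0.10 beside -0.01 for all genes. Among all genes 28.6% were higher and 29.5% lower in this comparison, and the counts per list below are read against these shares. That split depended on scaling, since library-size scaling gave 29 higher and 15 lower. Of the 9 genes of the nuclear complex, 1 was higher and 8 were lower (2 higher and 3 lower with library-size scaling). The named changes below kept their direction and call under the scalings tried, unless stated.

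The Mastermind coactivators MAML3 and MAML2, which bridge RBPJ and the cleaved receptor to acetyltransferases, had the smallest p-values of the nuclear complex. MAML3 averaged 10.4 ± 0.504 CPM in guide 1 knockout cells, 8.05 ± 0.871 CPM in guide 2 knockout cells and 33.9 ± 0.508 CPM in control cells, a log2 change of -1.89 (adjusted p = 2.12e-31). MAML2 averaged 16.2 ± 0.781, 13.2 ± 0.834 and 37.6 ± 0.0493 CPM in the same groups, a change of -1.36 (adjusted p = 2.29e-29). Both rose with SOX10 in knockout cells, MAML3 by 1.03 and MAML2 by 1.63 on the log2 scale, and by less in control cells, where the values were 0.19 and 0.67. RBPJ, the DNA-binding partner, fell by 0.32 on the log2 scale to 225 ± 2.74 and 212 ± 4.78 CPM in guide 1 and guide 2 knockout cells, against 273 ± 4.67 CPM in control cells (log2 change -0.32, adjusted p = 4.21e-16). It was also lower with SOX10, at -0.17 in knockout cells and -0.11 in control cells.

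Among 9 receptor-cleaving proteases, 3 were higher and 2 lower in knockout cells (6 and 1 with library-size scaling), where 58.1% of all genes were called in either direction. ADAM10, which makes the first cut of a ligand-bound receptor, was lower, at 198 ± 2.31 CPM in guide 1 knockout cells, 182 ± 5.26 CPM in guide 2 knockout cells and 307 ± 1.79 CPM in control cells (log2 change -0.69, adjusted p = 6.25e-27). SOX10 raised ADAM10 by 0.51 in knockout cells and by 0.11 in control cells. The gamma-secretase subunit genes APH1B and NCSTN were higher in knockout cells, at 1.49 and 0.42 on the log2 scale (adjusted p = 3.69e-20 and 1.38e-18). Of 6 glycosyltransferases that modify the receptor, 3 were higher and 1 lower (3 and 0 with library-size scaling): EOGT at 0.38, POFUT1 at 0.15 and LFNG at 0.42 were higher. LFNG, a Fringe enzyme that alters which ligands a receptor answers, was lower with SOX10, at -0.73 in knockout cells and -1.23 in control cells.

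The ubiquitin ligases and trafficking genes split as 2 higher and 9 lower of 14 (5 and 3 with library-size scaling), beside 28.6% higher and 29.5% lower among all genes. DTX4 was higher, at 1.09, and DTX1, a Deltex gene that is itself a Notch target, was lower, at -1.12. MIB1, the ligase that primes ligands for endocytosis, was at -0.22 (adjusted p = 3.06e-08) and was not called with library-size scaling. Among 13 corepressors, 1 was higher and 9 were lower (3 and 6 with library-size scaling), beside the same shares. TLE4, a Groucho corepressor that HES proteins recruit, averaged 38.6 ± 1.27 and 24.3 ± 1.12 CPM in guide 1 and guide 2 knockout cells and 94.3 ± 0.665 CPM in control cells (log2 change -1.62, adjusted p = 1.85e-34). CTBP2 at -0.38 and KDM5A at -0.28 were lower as well.

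Of 11 other Notch target genes tested, 6 were higher and 2 lower in knockout cells (7 and 2 with library-size scaling), beside 28.6% higher and 29.5% lower among all genes. CCND1, the cyclin D1 gene, was lower, at -1.51 (adjusted p = 1.52e-40), while CDKN1A at 0.36 and BHLHE40 at 0.70 were higher. These genes answer to many pathways. With SOX10, 1 of the 11 was higher and 7 were lower in knockout cells (28.1% and 28.1% of all genes), and 2 were higher and 5 lower in control cells (17.3% and 17.2%). Among the remaining ligands, DNER, which binds Notch receptors but is not a canonical ligand, averaged 12.6 ± 0.648 and 13.9 ± 0.446 CPM in guide 1 and guide 2 knockout cells and 4.96 ± 0.518 CPM in control cells (log2 change 1.42, adjusted p = 8.69e-19). SOX10 brought it to 3.18 ± 0.109 and 3.54 ± 0.641 CPM in guide 1 and guide 2 knockout cells, a change of -1.97 (adjusted p = 6.74e-27). DLK2, at -0.40, was not called with library-size scaling. DLL4, at 1.91 (adjusted p = 0.000840), rested on 50 and 76 counts in guide 1 and guide 2 knockout cells against 14 in control cells, and NOTCH4 was not called (0.13, adjusted p = 0.663). Over the 67 genes, SOX10 was called higher for 16 and lower for 29 in knockout cells (28.1% and 28.1% of all genes), and higher for 14 and lower for 21 in control cells (17.3% and 17.2%).

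**Figure D5:**
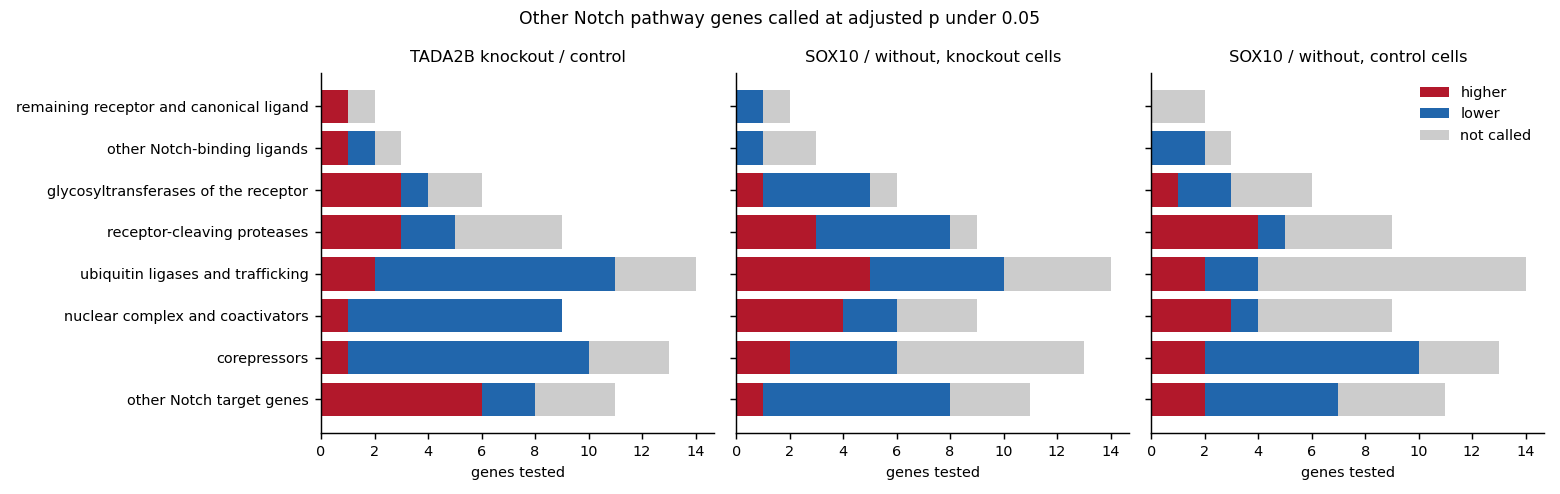
Number of genes called higher, lower or not called at an adjusted p under 0.05 in each of the 8 further lists, for knockout over control cells and for SOX10 over without SOX10 in knockout and in control cells, with the scaling used in the main test. In the knockout panel 8 of 9 nuclear complex genes and 9 of 13 corepressors are lower, counts that shrink to 3 and 6 with library-size scaling.

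For the 6 Notch genes whose group means varied most, the 3 genes with the most similar pattern over the 6 group means were found among 12219 genes, by the root mean square difference of centred log2 values. HES1 was most like COL5A2 (0.09), a collagen gene, then TENT5C and PMEPA1 (0.11 each). COL5A2 averaged 210, 93.1, 144 and 76.8 CPM in guide 1 knockout cells with SOX10, guide 1 knockout cells, guide 2 knockout cells with SOX10 and guide 2 knockout cells, and 276 and 202 CPM in the control background with and without SOX10. For NOTCH1 these were DTX1 (0.11), ST3GAL4 (0.11) and BTG1 (0.12). JAG1 was most like CEND1 (0.11), KLHL5 (0.17) and SLC2A10 (0.18), of which KLHL5 averaged 130 and 146 CPM in guide 1 and guide 2 knockout cells with SOX10 and between 52.0 and 67.7 CPM in the other groups. HEY1 was most like TENT5A (0.15), PPP2R2B (0.15) and PFKFB4 (0.17). HEY2 was most like GPNMB (0.13), a melanosomal glycoprotein gene, then MXI1 and KAT2B (0.16 each). JAG2, with its few counts, was most like PROS1 (0.13), PQLC3 and BTBD8 (0.16 each). With 6 group means, such likeness is a description of pattern and no more.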

How the data were processed

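What the authors deposited is a single table of unnormalized read counts for 18 libraries (KAPA Stranded mRNA-Seq, per the labels' protocols). The submitters' processing notes name HISAT2, HTSeq and hg38. Not given in the sources used here are their versions, the gene annotation and the strand setting, so a gene and its antisense partner cannot be told apart. The 10 genes and the further lists were chosen with earlier results of these data known.

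Of 58721 identifiers, 58676 matched GENCODE 29. All genes with enough counts (edgeR's filterByExpr, 21060 genes) were tested with edgeR 4.0.16 in R 4.3.3: TMM scaling, a mean per group, robust quasi-likelihood fit, 12 residual degrees of freedom, Benjamini-Hochberg adjustment per comparison, 12 comparisons. CPM uses TMM-scaled library sizes; RPKM also divides by exonic length. Replicates of a group differed by more than sampling noise, so none was merged. Alternatives were other scaling (RLE, library size), DESeq2 1.42.0, other filters, only the compared groups, a replicate block, and each library left out. All 10 genes are named; in each further list, up to 3 with the smallest p in the knockout comparison among those called. Counts for knockout against control were simulated with 200 of the 21060 tested genes changed. The filter left 20409 genes of the simulated counts, and a changed gene that it removed was scored as not recovered. In the simulated counts 54% of 1.25-fold, 78% of 1.5-fold, 78% of 2-fold and 96% of 4-fold changes were recovered. Far more genes (58.1%) were called in the data, so these shares do not give the recovery there. At this depth, low genes such as JAG2 and DLL1 are limited by counting error.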

Additional observations from a re-analysis of the deposited data

Results flagged for a closer look

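Effects that differed between 2 backgrounds, by a test of the difference itself with edgeR, are collected here; their causes were not tested. The SOX10 effect in knockout cells minus that in control cells was 0.82 for NOTCH1, 0.14 for NOTCH2, 0.38 for NOTCH3, 1.04 for JAG1 and 0.63 for HES1 on the log2 scale. It was -1.06 for HEY1 and -0.77 for HEY2. The same difference for SOX10 itself was 1.80, and its part in these values was not tested. NOTCH1 was higher with SOX10 in 6 of 6 knockout libraries, compared within each guide, and lower in 3 of 3 control libraries.

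The knockout effect with guide 2 minus that with guide 1, which share the control libraries, was -0.50 for NOTCH1, -0.17 for NOTCH2, -0.31 for JAG1, -0.48 for HES1 and -0.35 for HEY1. The SOX10 effect with guide 2 minus that with guide 1 was 0.27 for JAG1 and 0.70 for SOX10 itself.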

How the results depend on the processing

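Over 9 genes, 12 comparisons and the alternatives, 2617 values stayed on their side of the threshold, 51 lost a call and 16 gained one, and 0 called values changed sign. Some values that were not called did change sign, such as DLL3 in knockout against control cells within the SOX10 groups (-0.08 to 0.11), HEY1 with SOX10 in guide 2 knockout cells (-0.15 to 0.01) and JAG2 with SOX10 in knockout cells (-0.06 to 0.26). Calls of NOTCH1, NOTCH2 and HES1 were unchanged in every comparison under every alternative run. Library-size scaling lost HEY1 with guide 1 (adjusted p = 0.175) and HEY2 with guide 2 (0.118), and gained DLL3 with guide 1 (0.0195). Library-size and RLE scaling lost the SOX10 effect on HEY1 with guide 1 (0.0630 and 0.0529). DESeq2 lost DLL3 in the averaged knockout (0.0617) and HEY2 with guide 2 (0.0529). The number of all genes whose SOX10 effect differed between guides was 528, and ranged from 365 to 810 when single libraries were left out, reaching 810 without replicate 2 of guide 2 knockout cells. The cause was not tested. JAG2 has no value where a mean of at least 1 CPM was required.

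Same-numbered replicates of different groups did not deviate together. Over 45 pairs of such libraries the correlation lay between -0.03 and 0.07, and 0 exceeded 0.1. The numbers are therefore not taken to pair the samples. With a replicate block the knockout comparison called 12322 genes, SOX10 in knockout cells 11945, SOX10 in control cells 7439 and the difference of SOX10 effects 7213. Among the 9 genes the block changed 1 call, DLL3 in the averaged knockout (0.0513).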
